A study of Mus musculus with 16 samples.

Results

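The genes described here are a set of lysosomal genes, followed in AML246, a line of mouse acute myeloid leukaemia cells. The set was a list of 48 genes known to encode lysosomal enzymes, their cofactors and lysosomal membrane proteins. It also held proton pump subunits and the TFEB family of transcription factors. The list was chosen with earlier results of these data known, so its counts beside those of all genes are not an independent test. The count files hold 46 of the 48 genes among 13652 genes, and Sgsh and Ctss are not analysed here. The 46 genes comprise 10 glycosidases, 3 sulfatases, 4 lipid hydrolases, 7 cathepsins, 2 other peptidases, 4 luminal cofactors and sterol carriers, 8 membrane proteins, 5 proton pump genes and 3 TFEB family genes. Each passed the filter on low counts and was tested.

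RNA sequencing covered a course of 24 days in 16 libraries, which fall into 8 groups of 2. All cells were grown with interleukin-3, and the series title ties the addition of doxycycline to restoration of PU.1 (gene Spi1), a transcription factor that myeloid cells need to mature, and its removal to renewed knockdown. The groups were untreated cells (day 0), cells after 4, 8 and 12 days of doxycycline at 0.1 µg/mL, a day 12 sort of Cd11b-high cells, and cells 4, 8 and 12 days after the drug was taken away on day 12. Apart from that sort, each library came from total viable cells. The genotype, the construct that responds to doxycycline and whether the line is 1 clone are not given in the sources used here. Nothing in the labels tells whether the A and B libraries of a group were separate cultures, so each p-value rests on a spread that may be technical. No untreated library of a later day enters here, so day of the course and treatment cannot be told apart.

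Lysosomes are acidic compartments in which hydrolases break down proteins, glycans and lipids brought in by endocytosis, phagocytosis and autophagy. A vacuolar proton pump keeps the lumen acidic, heavily glycosylated membrane proteins line it, and most of the hydrolases reach it through mannose 6-phosphate receptors. TFEB, TFE3 and MITF are related basic helix-loop-helix factors that bind E-box sequences in promoters of many lysosomal genes. Granulocytes and macrophages, the mature progeny of myeloid precursors, rely on large lysosomal stores to degrade what they engulf.

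Total counts ran from 12962801 to 26509803 per library. Spi1 read 66.3 and 56.8 CPM (read counts scaled to a common library size with TMM factors) in the untreated libraries A and B, 226 and 219 at day 12 and 54.8 and 37.2 at 12 days off, so the libraries followed their labels. Itgam, which encodes Cd11b, read 1.41 and 1.77, then 719.5 and 669.5, then 1.08 and 1.505 CPM. Replicates differed by more than sampling noise in each group, most at 12 days off, where chi-square per degree of freedom over genes was 73.6 against 2.97 to 18.9 elsewhere. Mitochondrially encoded genes took 6.35% to 7.36% of the counts at day 0 and 2.02% to 3.59% in the other 14 libraries. In bulk RNA, fewer cells of a type and less RNA per cell cannot be told apart.

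Most of the lysosomal genes rose while PU.1 was restored and fell after withdrawal. In the untreated libraries the 46 genes took 0.735% and 0.756% of all counts, against 1.39% and 1.42% at day 12. The share was 0.952% and 0.997% at 4 days off and lay between 0.803% and 0.860% at 8 and 12 days off. A gene is called here when edgeR's quasi-likelihood test over all 13652 genes gave a Benjamini-Hochberg adjusted p under 0.05. Between day 12 and day 0, 31 of the 46 were called higher, where 30% of all genes were, and 2 were called lower, where 33.4% were. Of the 31, 15 had risen over 2-fold, a class that holds 12.6% of all genes. Log2 changes below are given with their standard error after ±. The median log2 fold of the 46 was 0.72 and that of all genes -0.07.

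The rise was already present at day 4. Against day 0, 30 members were called higher and 4 lower at day 4, beside 28.2% and 31% of all genes. At day 8 the counts were 32 and 4, beside 27% and 30.2%. The median log2 folds of the members were 0.62 and 0.60, against -0.05 for all genes at both times. The lower counts at days 4 and 8 shrank when a library of either group was left out, which leaves 1 in that group. Fits of the 4 libraries of a comparison alone called Cd63, Lgmn and Gla lower at day 4, but not Ctsh. At day 8 such a fit called Lgmn, Ctsl and Gla lower, but not Arsa. At day 12, 1 was lower without either day 12 library and 4 with library size alone as the scaling. These comparisons share the day 0 libraries, so they are not independent of each other.

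**Figure D1:**
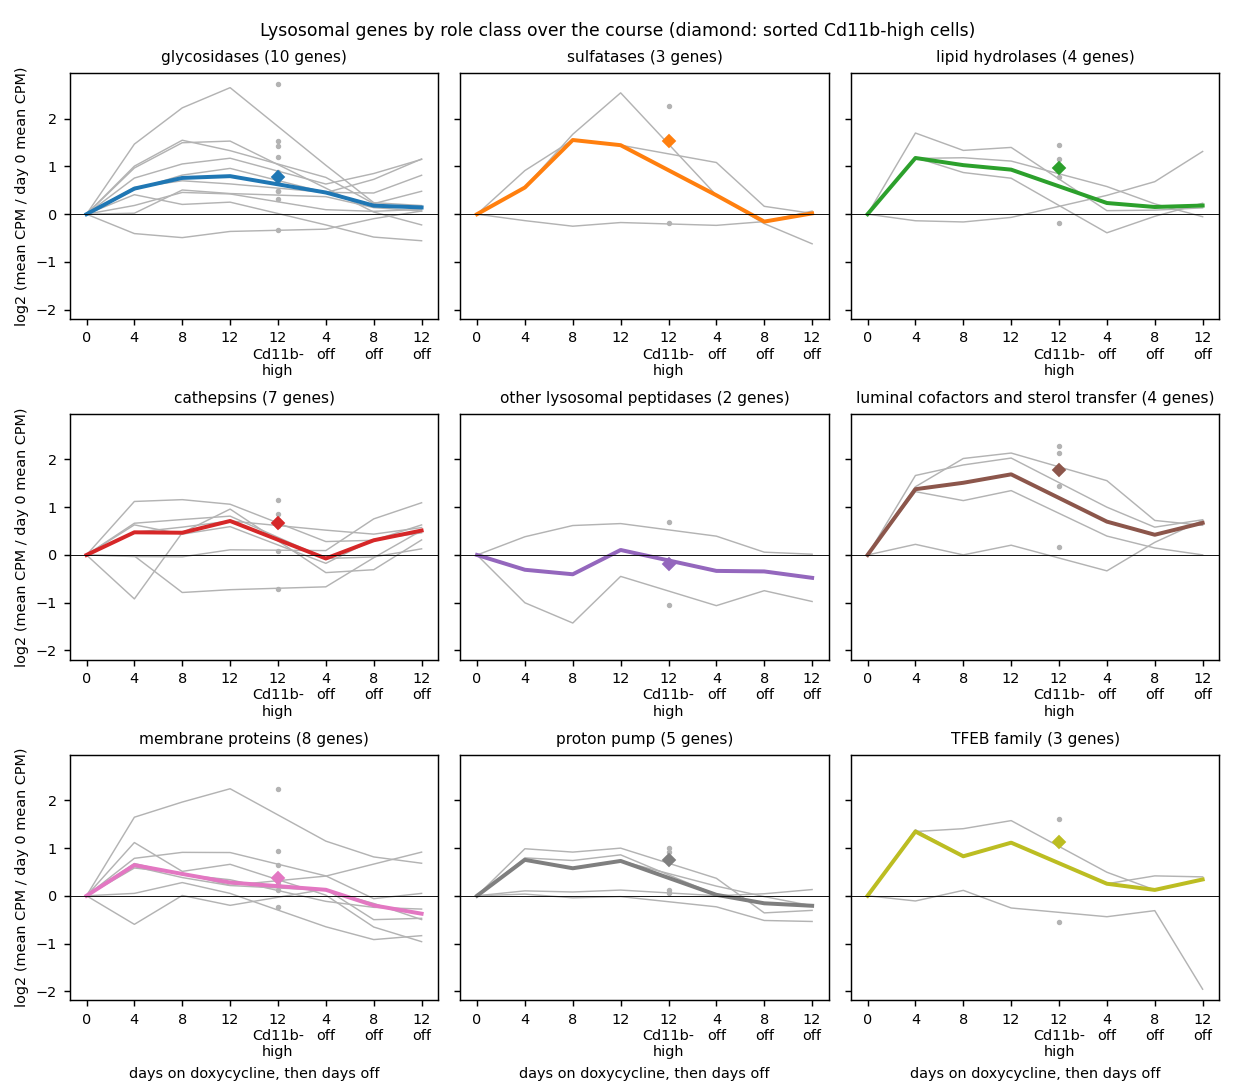
Log2 of each group's mean CPM over its day 0 mean, by role class and for all 8 groups in course order; each grey line is 1 gene and the coloured line is the class median, with the sorted Cd11b-high group drawn beside day 12. The class medians lie above 0 at days 4, 8 and 12 except for the 2 other peptidases at days 4 and 8, and the luminal cofactors stand highest at day 12 (median 1.69).

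Of the TFEB family, Tfeb and Tfe3 rose on doxycycline and Mitf was near the limit of detection. Tfeb read 12.0 and 13.3 CPM at day 0, 30.5 and 33.8 at day 4, 30.4 and 36.6 at day 8 and 37.2 and 38.1 at day 12. The 2 untreated libraries lay below all 6 total-cell libraries on doxycycline, and the gene rose 2.98-fold by day 12 (log2 change 1.58 ± 0.15, edgeR adjusted p = 5.6e-07). After withdrawal Tfeb read 17.5 and 18.1 CPM at 4 days, 12.8 and 14.7 at 8 days and 18.6 and 13.4 at 12 days, and at 4 days off it was still above day 0 (log2 change 0.50 ± 0.16, edgeR adjusted p = 0.022). That call at 4 days off was lost without day 0 replicate A, replicate A of 4 days off or replicate B of 4 days off (edgeR adjusted p = 0.14, 0.057 and 0.1 in turn).

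Tfe3 read 11.5 and 9.52 CPM at day 0, 25.4 and 29.4 at day 4, 16.5 and 20.7 at day 8 and 21.9 and 23.5 at day 12. It rose most by day 4 (log2 change 1.38 ± 0.15, edgeR adjusted p = 2.4e-06) and was 2.15-fold above day 0 at day 12 (log2 change 1.10 ± 0.15, edgeR adjusted p = 2e-05). After withdrawal Tfe3 read 11.8 and 13.2 CPM at 4 days, 13.9 and 14.1 at 8 days and 13.1 and 14.6 at 12 days, above both untreated libraries in each case. Mitf read at most 1.09 CPM in any library. At 12 days off Mitf read 0.196 and 0.274 CPM, below the 1.09 and 0.738 of day 0 (log2 change -1.95 ± 0.51, edgeR adjusted p = 0.0064), a call lost without day 0 replicate A (edgeR adjusted p = 0.084).

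The E-box that the TFEB family binds was looked for in RefSeq promoter sequences (GRCm38), which run from 250 bases before to 50 after an annotated transcript start and hold 39 of the 46 members. The letters TCACGTG, on either strand, stood in 13 of the 39 (33.3%) and in 6.86% of the 10257 genes of the count files that have a promoter there. The shorter core CACGTG, which lies within TCACGTG, stood in 35.9% and 11.6%, and GAGGAAGT, a form of the ETS motif read by PU.1, in 3 members, Ctsc, Gla and Gusb (7.69%), and 3.89%. A match is a description of the sequence and not a measured binding site. The members with TCACGTG were Lamp1, Mcoln1, Cln3, Ctsa, Ctsd, Lgmn, Gla, Glb1, Gaa, Naglu, Arsa, Atp6v1a and Atp6v0d1, the last with its match after the start only. In Cln3, Ctsa, Lgmn and Atp6v1a the match precedes a transcript start that lies within the span of the gene.

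The stretches below lie outside the span of their genes, upstream of it. They are shown for the 4 such members with more than 1 separate match, for Gaa, which rose, and for Arsa, which was not called at day 12. Capitals mark TCACGTG or its reverse complement, and each sequence is written 5′ to 3′ on the strand of its gene.
Lamp1: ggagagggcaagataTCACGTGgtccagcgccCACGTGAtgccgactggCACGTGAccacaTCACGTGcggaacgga
Mcoln1: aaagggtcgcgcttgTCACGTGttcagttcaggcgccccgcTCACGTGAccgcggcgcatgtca
Ctsd: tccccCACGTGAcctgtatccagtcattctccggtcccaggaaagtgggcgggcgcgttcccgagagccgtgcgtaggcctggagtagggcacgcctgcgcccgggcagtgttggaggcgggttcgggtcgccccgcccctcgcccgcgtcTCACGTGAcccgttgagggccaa
Gla: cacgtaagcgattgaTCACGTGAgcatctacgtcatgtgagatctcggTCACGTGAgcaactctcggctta
Gaa: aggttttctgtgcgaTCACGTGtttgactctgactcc
Arsa: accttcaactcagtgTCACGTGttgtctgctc

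In GRCm38 the stretch of Lamp1 lies at chr8:13159084-13159160 (plus strand), that of Mcoln1 at chr8:3500432-3500495 (plus strand), that of Ctsd at chr7:142387904-142388077 (minus strand), that of Gla at chrX:134601178-134601248 (minus strand), that of Gaa at chr11:119267807-119267843 (plus strand) and that of Arsa at chr15:89477425-89477456 (minus strand). Lamp1 holds 4 separate matches between 62 and 10 bases before its start, and Mcoln1, Ctsd and Gla hold 2 each.

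Folds were then set side by side for members with and without the letters. Of the 13 members with TCACGTG, 8 were called higher and 1 lower at day 12, beside 30% and 33.4% of all genes. Their log2 folds ran from -0.49 to 1.17, with a median of 0.66. Of the 26 with a promoter and no match, 17 were called higher and 1 lower, with log2 folds from -0.73 to 2.65 and a median of 0.65. Gla, with 2 palindromic matches, was the member lower at day 12 (log2 change -0.36 ± 0.12, edgeR adjusted p = 0.018). The largest rises, those of Man2b1, Arsb, Laptm5, Grn and Psap, came from promoters without these letters in the window.

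**Figure D2:**
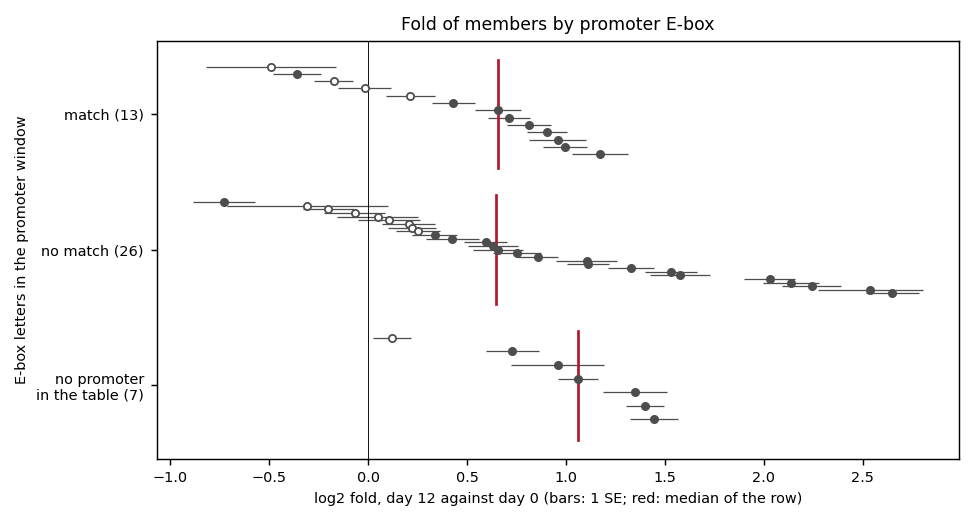
Log2 fold at day 12 against day 0 of the 46 members (horizontal axis), in 3 rows by whether the RefSeq promoter window holds TCACGTG on either strand; filled points were called, open points were not, and bars are 1 SE. The 13 members with a match span -0.49 to 1.17 and the 26 without reach 2.65.

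Glycosidases trim sugars from glycoproteins and glycolipids. By day 12, 8 of the 10 rose and 1 fell, beside 30% and 33.4% of all genes. Man2b1, lysosomal alpha-mannosidase, read 232 and 220.5 CPM at day 0, 548 and 703 at day 4, 1032 and 1086 at day 8 and 1453 and 1386 at day 12. Each step was above the one before it, with no overlap between groups, and the gene rose 6.27-fold by day 12 (log2 change 2.65 ± 0.13, edgeR adjusted p = 9.4e-10). After withdrawal Man2b1 read 428 and 493 CPM at 4 days, 248 and 288 at 8 days and 244 and 269 at 12 days, so that both libraries at 8 and 12 days lay just above the untreated pair. The gene lies at chr8:85082730-85098739 (GRCm38).

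Gusb, beta-glucuronidase, read 283 and 288 CPM at day 0, 500.3 and 617 at day 4, 775 and 837 at day 8 and 836 and 814 at day 12. It rose through day 8 and then levelled (log2 change 1.53 ± 0.13, edgeR adjusted p = 1.6e-07 at day 12). After withdrawal Gusb read 358 and 475 CPM at 4 days, 284 and 305 at 8 days and 245 and 244 at 12 days, so that the last 2 libraries were below both untreated ones without passing the test (log2 change -0.22 ± 0.13, edgeR adjusted p = 0.18). Hexa, the alpha chain of beta-hexosaminidase, read 123 and 128 CPM at day 0, 239.9 and 263 at day 4, 362 and 371 at day 8 and 324 and 305 at day 12 and was highest at day 8 (log2 change 1.55 ± 0.12, edgeR adjusted p = 5.8e-08). After withdrawal Hexa read 208 and 219.5 CPM at 4 days, 146 and 146 at 8 days and 197 and 152 at 12 days.

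Gaa, acid alpha-glucosidase, and Glb1, beta-galactosidase, rose on doxycycline, dropped in part at 4 days off and stood high again at 12 days off. Gaa read 96.8 and 85.6 CPM at day 0, 128 and 180.4 at day 4, 179 and 199 at day 8 and 210.5 and 200.3 at day 12 (log2 change 1.17 ± 0.14, edgeR adjusted p = 5.1e-06 at day 12). Taken off doxycycline, the cells held 134 and 149 CPM at 4 days, 157 and 172 at 8 days and 212 and 192 at 12 days, and the last of these groups was above day 0 (log2 change 1.15 ± 0.14, edgeR adjusted p = 1.9e-05). Glb1 read 57.1 and 54.6 CPM at day 0, 110.3 and 107 at day 12, 74.0 and 78.7 at 4 days off and 134 and 115 at 12 days off (log2 change 1.16 ± 0.14, edgeR adjusted p = 1.9e-05). Fuca1, alpha-fucosidase, read 80.7 and 68.7 at day 0, 115 and 116 at day 12 and 152 and 111 at 12 days off (log2 change 0.81 ± 0.13, edgeR adjusted p = 0.00015). In each of these 3 genes the lowest library at 12 days off lay above both untreated libraries.

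Gla, alpha-galactosidase A, was the one glycosidase lower on doxycycline. It read 45.4 and 52.6 CPM at day 0, 36.7 and 37.3 at day 4, 32.2 and 37.5 at day 8 and 39.1 and 37.2 at day 12, and each doxycycline library was below both untreated ones. The call at day 12 was lost without day 0 replicate B, day 12 replicate A or day 12 replicate B (edgeR adjusted p = 0.15, 0.053 and 0.1 in turn). After withdrawal Gla read 41.6 and 37.3 CPM at 4 days, 46.9 and 44.9 at 8 days and 56.7 and 45.97 at 12 days, overlapping the untreated values from 8 days on. Naglu, which acts on heparan sulphate, rose by less, from 79.5 and 77.8 CPM to 111 and 101 (log2 change 0.43 ± 0.11, edgeR adjusted p = 0.0026). Manba, beta-mannosidase, read 109 and 138 CPM at day 0 and 172 and 158 at day 12 (log2 change 0.42 ± 0.13, edgeR adjusted p = 0.012), a call lost without day 0 replicate A or day 12 replicate A (edgeR adjusted p = 0.16 and 0.086 in turn), and with library size alone as the scaling (edgeR adjusted p = 0.075). Neu1, the sialidase, read 146 and 128 CPM at day 0 and 165 and 162 at day 12 without passing the test, and was lower at 12 days off with 102 and 85.02 CPM (log2 change -0.56 ± 0.11, edgeR adjusted p = 0.001; edgeR adjusted p = 0.085 with those 4 libraries alone).

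The sulfatases, which remove sulphate from glycans and lipids, split into a pair that rose and 1 that was not called at day 12. Arsb, arylsulfatase B, read 120.5 and 84.0 CPM at day 0, 128 and 174 at day 4, 302 and 350.4 at day 8 and 589.9 and 601 at day 12. Both day 4 libraries lay above both untreated ones (log2 change 0.56 ± 0.25, edgeR adjusted p = 0.072), a difference that was called by DESeq2 (adjusted p = 0.023), with those 4 libraries alone (edgeR adjusted p = 1.3e-05) and without day 0 replicate A or day 4 replicate A (edgeR adjusted p = 0.038 and 0.027). Most of the rise came later, and day 12 was 3.95-fold above day 4 (log2 change 1.98 ± 0.26, edgeR adjusted p = 0.00011). After withdrawal Arsb read 104 and 165 CPM at 4 days, 84.7 and 93.6 at 8 days and 48.6 and 84.5 at 12 days, with the last A library below the untreated pair and the last B library level with the lower of them. Galns, which acts on keratan sulphate, read 114 and 110.5 CPM at day 0, 186 and 238 at day 4, 323 and 338 at day 8 and 307 and 306 at day 12 and kept 235 and 242 CPM at 4 days off (log2 change 1.08 ± 0.12, edgeR adjusted p = 9.8e-06 against day 0). Arsa, arylsulfatase A, stayed between 49.1 and 67.2 CPM in the 16 libraries. At day 8 Arsa read 51.01 and 50.95 CPM against 60.2 and 61.2 at day 0 and was called lower (log2 change -0.25). That call was not made with those 4 libraries alone.

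Of the 4 lipid hydrolases, Asah1, Ppt1 and Lipa rose by day 4 and Smpd1 took another course. Asah1, acid ceramidase, read 157 and 170.3 CPM at day 0, 529.6 and 533 at day 4, 413 and 412 at day 8 and 444 and 418 at day 12. Its highest group was day 4 (log2 change 1.70 ± 0.10, edgeR adjusted p = 2.5e-09), and day 12 was below it (log2 change -0.30 ± 0.09, edgeR adjusted p = 0.028). The decline was not called without day 4 replicate A, day 4 replicate B, day 12 replicate A or day 12 replicate B (edgeR adjusted p = 0.087, 0.071, 0.089 and 0.2 in turn). After withdrawal Asah1 read 170.2 and 174 CPM at 4 days, 173 and 174 at 8 days and 170.0 and 188 at 12 days, close to the untreated level within 4 days. Lipa, the acid lipase that frees cholesterol from its esters, read 35.6 and 33.4 CPM at day 0, 70.7 and 86.4 at day 4, 60.3 and 66.0 at day 8 and 58.8 and 57.5 at day 12. At 4 days off Lipa was below the untreated level, at 24.7 and 28.0 CPM (log2 change -0.39 ± 0.13, edgeR adjusted p = 0.024). That call was lost without day 0 replicate A, day 0 replicate B or replicate A of 4 days off (edgeR adjusted p = 0.12, 0.052 and 0.15 in turn). Ppt1, a thioesterase, read 112 and 114 at day 0, 247 and 260.2 at day 4 and 247 and 241 at day 12 (log2 change 1.11 ± 0.11, edgeR adjusted p = 4.8e-07).

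Smpd1, acid sphingomyelinase, was flat on doxycycline and climbed after withdrawal. It read 51.1 and 50.7 CPM at day 0, 45.1 and 47.4 at day 4, 47.5 and 43.4 at day 8 and 50.8 and 46.3 at day 12. After withdrawal Smpd1 read 73.9 and 59.9 CPM at 4 days, 86.1 and 77.0 at 8 days and 150.4 and 103 at 12 days, each group above the one before it and above all 10 libraries of days 0 to 12. At 12 days off it was 2.49-fold above day 0 (log2 change 1.31 ± 0.15, edgeR adjusted p = 1.2e-05) and 2.61-fold above day 12 (log2 change 1.38 ± 0.15, edgeR adjusted p = 2e-06), with the A library well above the B library.

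**Figure D3:**
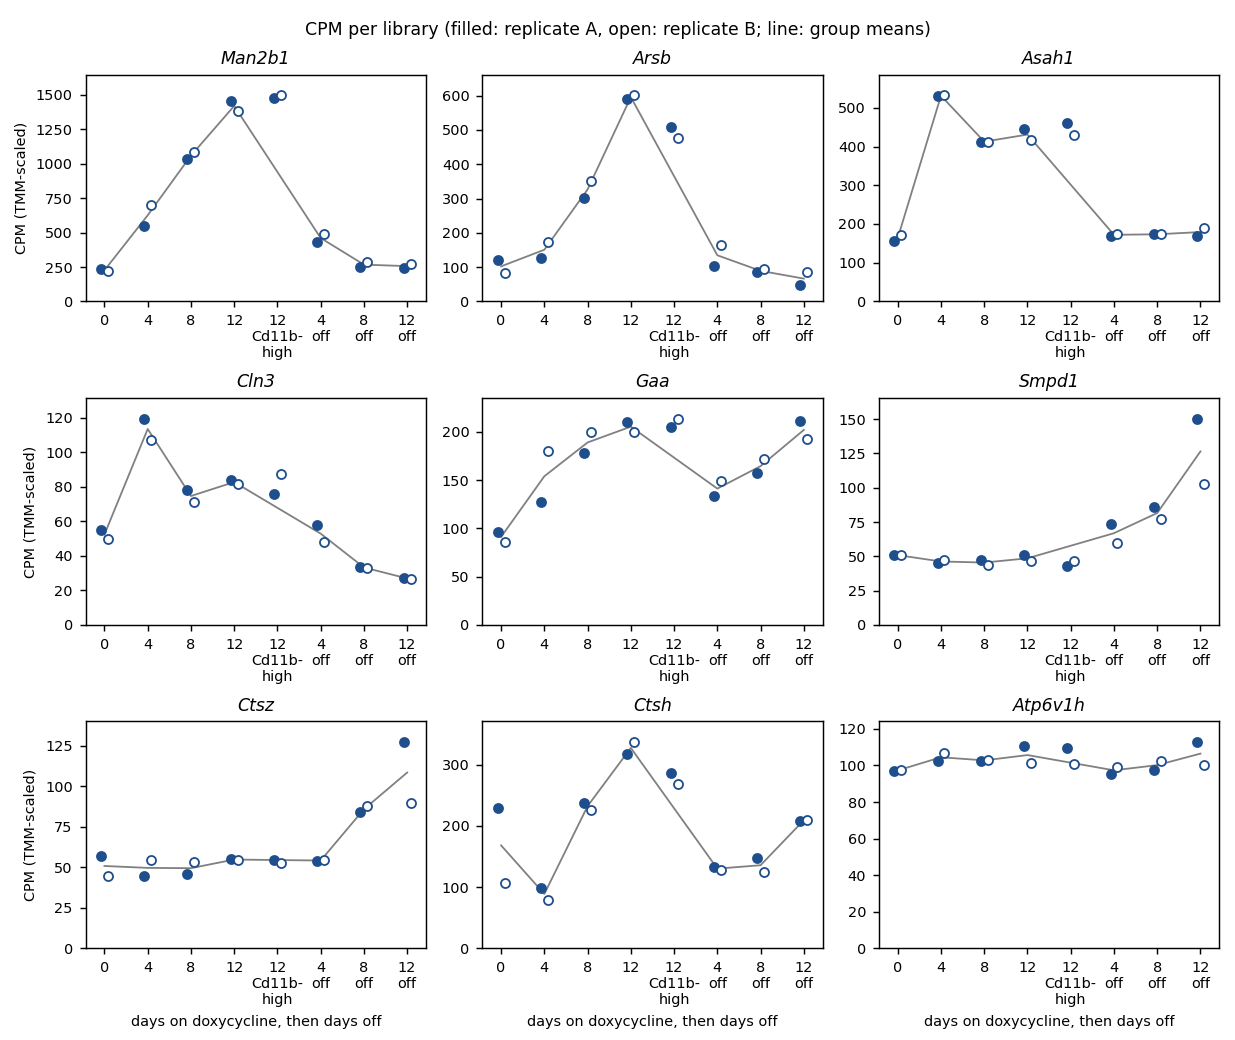
CPM in each of the 16 libraries for 9 members, on separate linear axes from 0, against the groups in course order; filled circles are replicate A, open circles replicate B, and the line joins group means of the total-cell groups. Man2b1 and Arsb climb through day 12, Asah1 and Cln3 peak at day 4, Gaa rises, dips at 4 days off and stands high again at 12, Smpd1 and Ctsz rise after withdrawal, Ctsh dips at day 4 and Atp6v1h stays level.

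Of the 7 cathepsins, the main lysosomal proteases, 5 rose by day 12 and 1 fell, beside 30% and 33.4% of all genes. Ctsd, cathepsin D, an aspartic protease, read 777 and 759 CPM at day 0, 997 and 1136 at day 4, 1146 and 1155 at day 8 and 1285 and 1231 at day 12. It rose 1.64-fold (log2 change 0.71 ± 0.11, edgeR adjusted p = 4.3e-05). After withdrawal Ctsd read 1107 and 1095 CPM at 4 days, 1027 and 1052 at 8 days and 1252 and 1034 at 12 days, and it was still above day 0 at 12 days off (log2 change 0.57 ± 0.11, edgeR adjusted p = 0.00064), though not with those 4 libraries alone (edgeR adjusted p = 0.071).

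Ctsb, cathepsin B, stood near its highest level from day 4 on and read 91.5 and 90.2 CPM at day 0, 185 and 211 at day 4, 199 and 207 at day 8 and 194 and 185 at day 12 (log2 change 1.06 ± 0.10, edgeR adjusted p = 4.2e-07). After withdrawal Ctsb read 110.0 and 111 CPM at 4 days, 115 and 110.0 at 8 days and 149 and 132 at 12 days, above both untreated libraries at each time. Ctsa, the protective protein that stabilises beta-galactosidase and neuraminidase, read 85.2 and 85.6 CPM at day 0, 122 and 149 at day 4, 142 and 144 at day 8 and 155 and 145 at day 12 (log2 change 0.81 ± 0.11, edgeR adjusted p = 1.6e-05) and returned to 81.3 and 81.0 CPM within 4 days of withdrawal. Ctsc, which activates granule serine proteases, read 94.4 and 105 at day 0, 152 and 149 at day 12, 80.7 and 96.0 at 4 days off and 136 and 138 at 12 days off.

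Ctsl fell on doxycycline, Ctsz was not called there, and both were higher at 12 days off than at day 12. Ctsl, cathepsin L, read 66.7 and 63.0 CPM at day 0, 64.9 and 63.0 at day 4, 37.3 and 37.9 at day 8 and 40.7 and 37.7 at day 12, so the day 8 and day 12 libraries lay below all 4 earlier ones (log2 change -0.73 ± 0.16, edgeR adjusted p = 0.00087 at day 12). After withdrawal Ctsl read 43.2 and 38.5 CPM at 4 days, 67.5 and 57.2 at 8 days and 112 and 73.4 at 12 days, and at 12 days off it stood 2.36-fold above day 12 (log2 change 1.24 ± 0.16, edgeR adjusted p = 6.8e-06). Ctsz, cathepsin Z, stayed between 44.5 and 57.3 CPM from day 0 to day 12 and at 4 days off, then read 84.2 and 87.7 at 8 days off and 127 and 89.9 at 12 days off (log2 change 1.09 ± 0.16, edgeR adjusted p = 7e-05 against day 0). For Ctsl, Ctsz and Smpd1 the replicates at 12 days off stood well apart, with A the higher. Without that A library the log2 folds against day 12 were 0.91, 0.71 and 1.08.

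Ctsh, cathepsin H, dipped and then overshot. It read 229.8 and 107 CPM at day 0, 98.2 and 79.6 at day 4, 238 and 227 at day 8 and 318 and 337 at day 12. The untreated libraries differed by over 2-fold from each other, the day 4 libraries lay below both, and the day 12 libraries above both (log2 change -0.92 ± 0.24, edgeR adjusted p = 0.0039 at day 4, log2 change 0.96 ± 0.23, edgeR adjusted p = 0.0026 at day 12, log2 change 1.88 ± 0.24, edgeR adjusted p = 8.6e-05 for day 12 against day 4). After withdrawal Ctsh read 132 and 128 CPM at 4 days, 147 and 124 at 8 days and 209 and 209.8 at 12 days. The call at day 4 was lost without day 0 replicate A or day 4 replicate B (edgeR adjusted p = 0.14 and 0.057 in turn), and with those 4 libraries alone (edgeR adjusted p = 0.26). The summed level of 10 eosinophil markers moved alongside it, at 5226 and 2095 CPM in the untreated libraries A and B, 219 and 260 at day 4, and 8587 and 9581 at day 12. The part of that in the Ctsh values was not tested.

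Of the other peptidases, Tpp1, tripeptidyl peptidase 1, rose at day 12, from 167 and 151 CPM to 252 and 249 (log2 change 0.66 ± 0.13, edgeR adjusted p = 0.00035). Lgmn, legumain, an asparaginyl endopeptidase, was at 0.893 to 3.75 CPM in all libraries, with its highest value in untreated library A and 3.75 and 1.55 CPM at day 0. It was lower at day 8, with 1.08 and 0.893 CPM (log2 change -1.47 ± 0.39, edgeR adjusted p = 0.0047), a call lost without day 0 replicate A (edgeR adjusted p = 0.19).

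The 4 luminal cofactors and sterol carriers had the largest median log2 fold of the classes at day 12, 1.69. Psap, the precursor of the saposins that present lipids to hydrolases, read 361 and 319 CPM at day 0, 942 and 1212 at day 4, 1193 and 1317 at day 8 and 1408 and 1365 at day 12. It rose 4.08-fold (log2 change 2.03 ± 0.13, edgeR adjusted p = 7e-09) with no overlap between doxycycline and untreated libraries. After withdrawal Psap read 638 and 722 CPM at 4 days, 509 and 508 at 8 days and 575 and 558 at 12 days, and each time off lay above day 0 (log2 change 0.74 ± 0.12, edgeR adjusted p = 0.00024 at 12 days off).

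Grn, progranulin, which is cleaved into granulins in the lysosome, read 125 and 153 CPM at day 0, 325 and 423 at day 4, 551 and 576 at day 8 and 621 and 599 at day 12. Its rise was 4.39-fold (log2 change 2.14 ± 0.14, edgeR adjusted p = 1.1e-08). After withdrawal Grn read 388 and 429 CPM at 4 days, 208 and 250.5 at 8 days and 217 and 210.2 at 12 days, and at 4 days off it was the member farthest above day 0 (log2 change 1.56 ± 0.14, edgeR adjusted p = 1.6e-06). Npc1 and Npc2 hand cholesterol out of the lysosome, Npc2 in the lumen and Npc1 in the membrane. Npc1 read 34.4 and 32.5 CPM at day 0, 73.3 and 94.6 at day 4, 72.8 and 74.5 at day 8 and 86.5 and 83.9 at day 12 (log2 change 1.35 ± 0.16, edgeR adjusted p = 4.6e-06), and after withdrawal it read 39.2 and 48.9 CPM at 4 days, 35.7 and 38.5 at 8 days and 27.4 and 39.7 at 12 days. Npc2 was not called on doxycycline, at 193 and 181 CPM at day 0 and 220.5 and 210.3 at day 12, and was higher at 12 days off with 364 and 253 CPM (log2 change 0.72 ± 0.14, edgeR adjusted p = 0.00063 against day 0).

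Of the 8 membrane proteins, 4 were called higher at day 12 and 0 lower, beside 30% and 33.4% of all genes. Laptm5, a lysosomal transmembrane protein of blood cells, read 336 and 271 CPM at day 0, 812 and 1087 at day 4, 1122 and 1244 at day 8 and 1490.0 and 1381 at day 12. It rose 4.73-fold (log2 change 2.24 ± 0.15, edgeR adjusted p = 1.1e-08). After withdrawal Laptm5 read 637 and 705 CPM at 4 days, 509 and 558 at 8 days and 502 and 472 at 12 days, above the untreated libraries at each time (log2 change 0.68 ± 0.14, edgeR adjusted p = 0.0013 at 12 days off).

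Lamp1, one of the 2 main glycoproteins of the lysosomal membrane, read 514 and 460.2 CPM at day 0, 799 and 879.9 at day 4, 889 and 941 at day 8 and 931 and 894 at day 12 (log2 change 0.91 ± 0.10, edgeR adjusted p = 2e-06). After withdrawal Lamp1 read 624 and 676 CPM at 4 days, 474 and 460.0 at 8 days and 515 and 494 at 12 days. Lamp2, the other, was highest at day 4 with 588 and 612 CPM against 335 and 417 at day 0 and 487 and 461 at day 12 (log2 change 0.34 ± 0.11, edgeR adjusted p = 0.017). The day 12 call of Lamp2 was lost without day 0 replicate A or day 12 replicate A (edgeR adjusted p = 0.2 and 0.1 in turn), and with library size alone as the scaling (edgeR adjusted p = 0.15). Cln3, a membrane protein whose loss causes Batten disease, read 55.2 and 49.6 CPM at day 0, 119 and 107 at day 4, 77.8 and 71.4 at day 8 and 83.8 and 81.6 at day 12, a peak at day 4 (log2 change 1.11 ± 0.12, edgeR adjusted p = 1.1e-06). After withdrawal Cln3 read 57.9 and 47.8 CPM at 4 days, 33.5 and 33.0 at 8 days and 27.2 and 26.5 at 12 days, and at 12 days off both libraries were below every earlier one (log2 change -0.96 ± 0.12, edgeR adjusted p = 1.8e-05 against day 0).

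Mcoln1, the lysosomal calcium channel TRPML1, rose at day 4 (log2 change 0.61 ± 0.12, edgeR adjusted p = 0.00053), was not called at day 12 (61.4 and 58.2 against 51.6 and 51.6 CPM) and was lower at 12 days off (log2 change -0.50 ± 0.12, edgeR adjusted p = 0.0046; edgeR adjusted p = 0.15 with those 4 libraries alone). Scarb2, the receptor that carries glucocerebrosidase, was higher at 12 days off than at day 0, with 112 and 119 against 53.2 and 69.3 CPM (log2 change 0.92 ± 0.12, edgeR adjusted p = 3.4e-05). Cd63, a tetraspanin of late endosomes and granules, had the most reads per length of the 46 genes in each group and read 1172 and 1088 CPM at day 0, 785 and 707 at day 4, 1169 and 1102 at day 8 and 958 and 1008 at day 12. It was lower at day 4 (log2 change -0.60 ± 0.13, edgeR adjusted p = 0.00089) and was not called at day 8 or day 12. Cd68, a macrophage-associated membrane protein, read 6.09 and 6.05 CPM at day 0, 5.99 and 6.57 at day 4, 6.22 and 8.48 at day 8 and 6.25 and 6.31 at day 12. After withdrawal Cd68 read 4.45 and 3.28 CPM at 4 days, 3.25 and 3.18 at 8 days and 3.93 and 2.87 at 12 days, below each earlier library (log2 change -0.84 ± 0.22, edgeR adjusted p = 0.006 at 12 days off against day 0). That call was lost without replicate B of 12 days off (edgeR adjusted p = 0.062), and with those 4 libraries alone (edgeR adjusted p = 0.093).

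Of the 5 proton pump genes, Atp6v0d1, Atp6ap1 and Atp6v1b2 rose by day 12 and 2 catalytic-sector genes did not pass the test. Atp6v0d1, a subunit of the membrane sector, read 115 and 106 CPM at day 0, 218 and 219 at day 4, 209 and 208 at day 8 and 226 and 215 at day 12 (log2 change 0.997 ± 0.11, edgeR adjusted p = 2.1e-06). After withdrawal Atp6v0d1 read 139 and 146 CPM at 4 days, 85.8 and 86.6 at 8 days and 99.9 and 78.9 at 12 days, with the libraries of 8 and 12 days below both untreated ones. Atp6ap1, an accessory protein of pump assembly, also rose, from 109 and 121 CPM to 212 and 204 (log2 change 0.86 ± 0.10, edgeR adjusted p = 4.6e-06), as did Atp6v1b2, a B subunit, from 96.8 and 91.3 to 159.7 and 152 (log2 change 0.73 ± 0.13, edgeR adjusted p = 0.00023).

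Atp6v1a, the subunit that splits ATP, read 243 and 215 CPM at day 0, 212 and 258 at day 4, 208 and 237 at day 8 and 232 and 221 at day 12 and did not pass the test at day 12, but it was lower at 12 days off with 140.0 and 176 CPM (log2 change -0.54 ± 0.13, edgeR adjusted p = 0.0043). That call was lost without day 0 replicate A (edgeR adjusted p = 0.051), and with those 4 libraries alone (edgeR adjusted p = 0.098). Atp6v1h, a regulatory subunit, lay between 95.4 and 113 CPM in the 16 libraries, and no comparison called it.

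**Figure D4:**
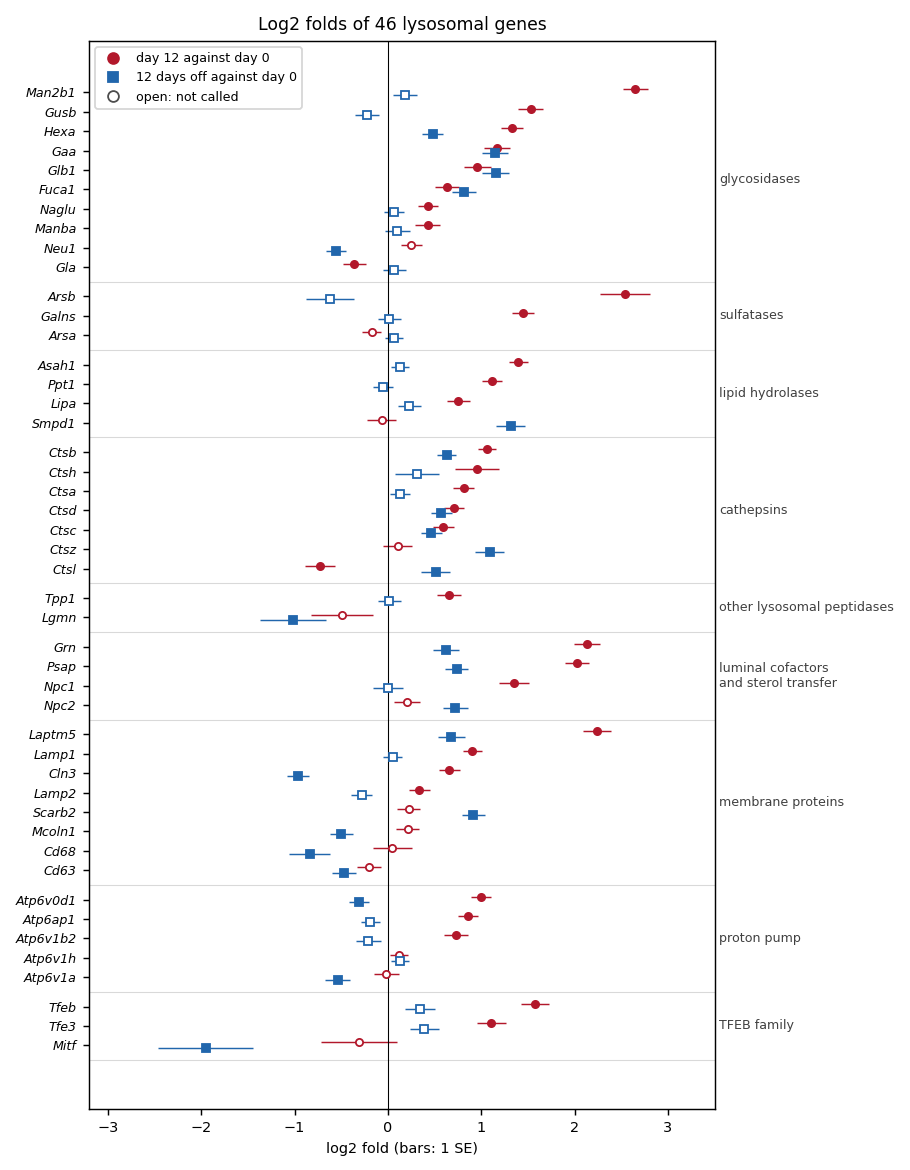
Log2 fold at day 12 against day 0 (circles) and at 12 days off against day 0 (squares) for the 46 members, grouped by role class, with bars of 1 SE; filled symbols were called at an adjusted p under 0.05. The circles lie right of 0 for 38 of the 46 genes, and the squares beyond 1 in size are those of Smpd1, Glb1, Gaa and Ctsz on the right and Mitf and Lgmn on the left. The drop of Lgmn rests mostly on untreated library A.

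RPKM values, which divide CPM by gene model length, allow levels to be set side by side between genes. At day 0, 7 members had a mean of at least 100 RPKM, and at day 12 there were 15. The order at day 12 was led by Cd63 (948 RPKM), Ctsd (644), Laptm5 (599), Psap (508) and Lamp1 (405). Man2b1 went from 52.3 RPKM at day 0 to 328 at day 12. Mitf was the lowest member in each group, at 0.148 RPKM at day 12, and Tfeb stood at 4.47 RPKM at day 0 and 13.3 at day 12.

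The rise had different timing in different genes. Between day 12 and day 4, 13 members were called higher and 7 lower, beside 14.7% and 12.3% of all genes. The 13 were led by Man2b1, Arsb and Ctsh, and included Grn (log2 change 0.71 ± 0.14, edgeR adjusted p = 0.0016), Laptm5 (log2 change 0.60 ± 0.14, edgeR adjusted p = 0.006) and Gusb (log2 change 0.56 ± 0.13, edgeR adjusted p = 0.0052). The call of Laptm5 was lost without day 4 replicate A or day 12 replicate A (edgeR adjusted p = 0.12 and 0.061 in turn) and that of Gusb without day 4 replicate A (edgeR adjusted p = 0.099). The 7 that were lower by day 12 were Asah1, Lipa, Ctsl, Lamp2, Scarb2, Cln3 and Mcoln1, 4 of them membrane proteins. With library size alone as the scaling, 8 were higher and 9 lower. The counts were lower without a day 4 or day 12 library: 7 members were called without day 4 replicate A or without day 12 replicate A, and 8 without day 12 replicate B. Leaving out a library leaves 1 in its group, so calls lost that way do not show that they rest on a single library. A fit of those 4 libraries alone called 12 members higher and 8 lower, with each of the 7 among the lower ones.

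Between cells sorted for high Cd11b at day 12 and the total cells of that day, edgeR called 0 of the 46 members, beside 0.0146% of all genes called either way, 0 members had an unadjusted p under 0.05, and DESeq2 also called 0. Man2b1 read 1479 and 1498 CPM in the sorted and 1453 and 1386 in the total cells, Psap 1504 and 1462 and 1408 and 1365, and Grn 661 and 684 and 621 and 599. The largest shifts in the means were those of Lgmn (log2 change -0.60 ± 0.35) and Arsb (-0.28 ± 0.25). Total viable cells contain the Cd11b-high cells, so this sets a part against its whole. Itgam, the gene of the sort marker, was itself not called between the sorted and total cells (log2 change 0.393). A fit of the 4 libraries alone called 2 members lower, Arsb (edgeR adjusted p = 0.002) and Ctsh (edgeR adjusted p = 0.01). That fit called 313 of the 12917 genes it tested.

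Most of the set was lower 4 days after withdrawal than at day 12. At 4 days off, 29 members were called lower than at day 12 and 2 higher, beside 18.8% and 18% of all genes, and the median log2 fold was -0.54. At 12 days off, 31 were lower and 7 higher than at day 12, beside 32.4% and 32.9%, with a median of -0.67. The 2 called higher at 4 days off were Smpd1 and Cd63, and 0 were higher without day 12 replicate A, day 12 replicate B or replicate A of 4 days off, 1 without replicate B of 4 days off and 1 by DESeq2. The 7 at 12 days off were Smpd1, Ctsl, Ctsz, Npc2, Scarb2, Gla and Arsa, and with those 4 libraries alone 4 members were higher. Arsb fell furthest (log2 change -3.16 ± 0.27, edgeR adjusted p = 2.8e-07), followed by Man2b1 (log2 change -2.47 ± 0.13, edgeR adjusted p = 1.3e-09) and Gusb (log2 change -1.76 ± 0.13, edgeR adjusted p = 3.8e-08).

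At 4 days off, part of the rise was still there. Against day 0, 19 members were called higher and 4 lower, beside 18.8% and 19.1% of all genes, and the members' median log2 fold was 0.22. Man2b1 (log2 change 1.02 ± 0.13, edgeR adjusted p = 2.9e-05), Galns, Laptm5 (log2 change 1.14 ± 0.14, edgeR adjusted p = 2.9e-05), Grn and Psap (log2 change 1.001 ± 0.12, edgeR adjusted p = 2.7e-05) were each over 2-fold above day 0, as were 5.3% of all genes, at a time when Spi1 read 65.0 and 56.6 CPM. This count was 15 in both directions together when day 0 replicate A was dropped and 13 when replicate B of 4 days off was, against 23 with all libraries. The lower count was 1 without day 0 replicate A and 2 without either 4 days off library or by DESeq2.

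At 8 and 12 days off the set as a whole was near its untreated level, with members on either side of it. At 8 days, 12 were called higher and 6 lower than at day 0, beside 16.2% and 16.9% of all genes, and the median log2 fold was 0.06. The lower count was 3 without day 0 replicate A or without replicate B of 8 days off, the latter with 12 members called in all against 18. At 12 days, 15 were higher and 9 lower, beside 21.6% and 22%, and the median was 0.12. The members over 2-fold above day 0 at 12 days were Smpd1, Glb1, Gaa and Ctsz (4.89% of all genes), and those over 2-fold below were Mitf and Lgmn (7.98%). Lgmn read 1.375 and 1.323 CPM at 12 days off against 3.75 and 1.55 at day 0. Its drop thus rests mostly on untreated library A, and it was not called with those 4 libraries alone. With the 4 libraries of this comparison alone, edgeR called 12 members, 10 higher and 2 lower, and without day 0 replicate A the lower count was 5.

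Genes that work beside the members were read from further lists. Of 36 further hydrolases and activators, 20 were called higher and 5 lower at day 12, beside 30% and 33.4% of all genes, with a median log2 fold of 0.44 (-0.07 for all genes). Gm2a, the activator that presents ganglioside GM2, rose from 6.14 and 7.16 to 103 and 97.0 CPM (log2 change 3.92 ± 0.17, edgeR adjusted p = 1.3e-10), and Lyz2, a lysozyme also among the macrophage markers and close in sequence to Lyz1, from 47.5 and 64.7 to 354 and 319 (log2 change 2.59 ± 0.14, edgeR adjusted p = 2.6e-09). Epdr1 was among the 5 that fell (log2 change -2.19 ± 0.17, edgeR adjusted p = 5.3e-08). Of 18 further proton pump genes, 13 were higher and 2 lower beside the same shares, led by Rogdi (log2 change 2.17 ± 0.15, edgeR adjusted p = 2.6e-08), Ncoa7 (log2 change 2.14 ± 0.16, edgeR adjusted p = 3.3e-08) and Atp6v0c, the proteolipid ring subunit (log2 change 1.43 ± 0.12, edgeR adjusted p = 1.1e-07).

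Of 21 sorting genes, 11 were higher and 5 lower at day 12, where 30% and 33.4% of all genes were. M6pr, the small mannose 6-phosphate receptor, rose from 165 and 184 to 346 and 349 CPM (log2 change 0.99 ± 0.10, edgeR adjusted p = 7.1e-07), and Sort1, sortilin, from 158 and 176 to 677 and 629 (log2 change 1.97 ± 0.21, edgeR adjusted p = 1.4e-06). The 25 further membrane proteins and transporters were mixed, with 6 higher and 8 lower, shares near those of all genes. Among them Litaf, a small protein of late endosomal membranes, rose (log2 change 1.47 ± 0.16, edgeR adjusted p = 1.5e-06), while Tmem9 (log2 change -1.94 ± 0.19, edgeR adjusted p = 5.3e-07) and Slc29a3, a lysosomal nucleoside transporter (log2 change -1.68 ± 0.18, edgeR adjusted p = 1.2e-06), fell. Of 20 genes of TFEB control, 9 were higher and 5 lower, beside 30% and 33.4% of all genes. Ppp3r1, the regulatory subunit of calcineurin, which dephosphorylates TFEB, rose from 122 and 136 to 369.6 and 359 CPM (log2 change 1.499 ± 0.11, edgeR adjusted p = 4.7e-08). Flcn, folliculin, which favours the phosphorylation of TFEB and TFE3 by mTORC1, fell from 139.5 and 128 to 48.5 and 46.5 (log2 change -1.495 ± 0.11, edgeR adjusted p = 5e-08).

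Markers of mature cell types moved in the same libraries as the lysosomal genes. The day 12 counts below stand beside 30% of all genes called higher and 33.4% called lower. Of 14 neutrophil markers, 13 were called higher at day 12 and 0 lower, with a summed level of 757 to 768 CPM at day 0, 3042 to 3730 at day 4, 1449 to 1451 at day 12 and 470.0 to 636 at 12 days off. Of 10 eosinophil markers, 9 were called higher and 0 lower at day 12, with the sums given beside Ctsh and 4274 to 4353 CPM at 12 days off. Of 7 macrophage and monocyte markers, 5 were higher and 0 lower. Their sums were 1340.0 to 1458 CPM at day 0, 1924 to 1952 at day 12 and 1255 to 1451 at 12 days off. Single genes dominate these sums. At day 0, Ly6c2 held most macrophage-list reads (22654 and 18089) and Cebpe most neutrophil-list reads (11064 and 7760). Median log2 folds at day 12 were 4.06 for neutrophil, 3.67 for eosinophil and 1.88 for macrophage and monocyte markers. The 6 basophil and mast cell markers gave 3 higher and 3 lower, and the 8 myeloid progenitor markers 3 higher and 5 lower, the latter with sums of 2546 to 2891 CPM at day 0 and 1458 to 1490.0 at day 12. B cell, T and NK cell, and erythroid markers gave 0 higher and 1 of 2, 1 of 3 and 2 of 3 lower. Retnlg had 0 reads at day 0 and at 12 days off, Ear2 at day 4 and 12 days off, and Cma1 at days 4 and 8 and in the sorted cells. Ear1, Ear2 and Ear6 are close paralogs, so the split of their reads is uncertain. B cell markers summed to at most 4.20 CPM and T and NK cell markers to at most 36.6 CPM in any library. The part of these shifts in the lysosomal values was not tested.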

How the data were processed

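Gene expression was measured by RNA sequencing in 16 libraries. The authors deposited 1 file of raw counts per gene and library, with gene lengths. The submitters' processing notes name featureCounts, edgeR, limma and the mm10 build, with the aligner not given in the sources used here. Gene identifiers were named from RefSeq annotation of GRCm38, which matched 13216 of 13652. Members and lists were chosen with earlier results of these data known.

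All 16 libraries entered 1 edgeR (4.0.16) quasi-likelihood fit with TMM factors, robust dispersions, filterByExpr (0 genes removed) and a mean per group, with 8 residual degrees of freedom. Tests were two-sided, and p-values were adjusted over all genes by Benjamini-Hochberg. The method was tested on simulated data. Depth of 12962801 to 26509803 counts leaves genes near 1 CPM, such as Mitf and Lgmn, imprecise. Values by library follow a rule: the TFEB family, the members of each class with the lowest adjusted p at day 12 or in another comparison, those against their class, and 3 genes per further list. Other members were added after their values were seen. Alternatives were RLE factors, library size alone, no filter, a mean of at least 1 CPM, DESeq2 (1.42.0), 4 libraries per fit, the replicate letter as a block, and each library left out.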

Additional observations from a re-analysis of the deposited data

How the results depend on the processing

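Counts of members called stayed within 1.5 times under RLE factors, library size alone, no filter, a mean of at least 1 CPM, DESeq2 and the replicate block in each of the 10 comparisons. Fitting the 4 libraries of a comparison alone gave 2 for the Cd11b-high sort against day 12 (0 in the full fit) and 12 for 12 days off against day 0 (24). For day 12 against day 0, such a fit also called Npc2, Neu1 and Mcoln1 higher (edgeR adjusted p = 0.0087, 0.0062 and 0.011 in turn). Leaving out 1 library gave 13 to 19 members for 4 days off against day 0 (23) and 7 to 14 for day 12 against day 4 (20). In the other comparisons no single library moved the total by over 1.5 times, though counts in 1 direction moved further. With the replicate block, day 12 against day 0 gave 34 members (33 without it) and 4 days off against day 0 gave 26. The labels do not tie the letters together, and 8 of the 28 pairs of groups had same-letter deviations correlated above 0.1 (range -0.0907 to 0.264). Library size alone shifted the median log2 change of all genes between day 12 and day 0 from -0.0688 to -0.204. Of 87 gene values tested, 69 kept direction and call under each alternative, and 0 changed sign. TCACGTG stood in 12 of 39 member promoters when only bases before the transcript start were read. With 2 libraries a group and a biological coefficient of variation of 10.9% over all genes, small changes may have been missed, most of all in genes near 1 CPM.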

Other observations

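Autophagy delivers cytoplasm to lysosomes. Of 31 autophagy genes measured, 20 were called higher and 3 lower at day 12, with a median log2 fold of 0.41, beside 30% and 33.4% of all genes. Sqstm1, the receptor p62, read 153 and 155 CPM at day 0, 262 and 297 at day 4, 284 and 323 at day 8 and 399 and 378 at day 12 (log2 change 1.34 ± 0.12, edgeR adjusted p = 3.2e-07). The day 12 libraries lay above both untreated ones, and after withdrawal Sqstm1 read 214 and 216 CPM at 4 days, 192 and 189 at 8 days and 242 and 185 at 12 days. Atg7, the enzyme that activates ATG8 and ATG12 proteins, rose from 44.3 and 54.4 to 107 and 107 CPM (log2 change 1.12 ± 0.12, edgeR adjusted p = 1.3e-06), and Uvrag, a subunit of the endosomal lipid kinase complex, from 52.5 and 54.3 to 110.1 and 105 (log2 change 1.01 ± 0.11, edgeR adjusted p = 2.1e-06).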
